A study of Danio rerio with 24 samples.

Results

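The genes described here are 5 matrix metalloproteinases of zebrafish (Danio rerio), mmp9, mmp13a, mmp2, mmp14a and mmp14b, and 2 tissue inhibitors of metalloproteinases, timp2a and timp2b. They were picked by name, with earlier results of these data known, out of 8793 genes with a single symbol on the array. Every probe set that the platform annotation assigns to 1 of these 7 genes was taken. The array holds 9 such probe sets, a brighter and a dimmer set each for mmp2 and mmp14a and 1 set for every other gene. All 9 read above the filter on low values on all 24 arrays. RNA came from caudal fins, which regrow after amputation, and each array was hybridised with 1 sample. Metabolic memory fish were wild-type fish given 5 injections of streptozocin, which kills pancreatic beta cells, at 350 mg/kg into the dorsal part of the fin, and then lived 60 days drug-free. Control fish were wild type as well, and the treatment protocol gives them the citrate buffer used as solvent, although the design text calls them untreated. Both arms were sampled in triplicate at 0, 12, 24 and 48 h after amputation, which gives 8 groups of 3 arrays. The labels name 15 fins without saying whether they make up a sample or a group, and nothing there tells whether the triplicates came from different fish. Blood glucose, strain, sex and age are also not given there.

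Matrix metalloproteinases are zinc enzymes that cut proteins of the extracellular matrix, and most are made as inactive precursors. In mammals MMP9 and MMP2 are gelatinases, which digest denatured collagen and basement membrane collagen, MMP13 is a collagenase that opens the triple helix of fibrillar collagen, and MMP14 is anchored in the cell membrane, where it activates the precursor of MMP2. TIMP2 blocks active metalloproteinases, and in mammals it also helps MMP14 to capture the MMP2 precursor. Breakdown and replacement of matrix accompany the closing of a fin wound by epidermis and the build-up of the blastema, the mass of dividing mesenchyme from which the fin regrows.

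Values are log2 signals per probe set, and a difference of 1 on this scale is a 2-fold difference. Signals of different probe sets depend on their probes and are not set against each other. Every comparison was made with limma over all 24 arrays, and a probe set was called at an adjusted p under 0.05 among the 10140 that passed the filter. Correlations between arrays ran from 0.978 to 0.996 within groups, and the lowest of any pair was 0.835. Hybridisation controls averaged 9.69 to 9.82 in the groups of 24 and 48 h and 10.12 to 10.18 in those of 0 and 12 h. This gap runs along comparisons of a late with an early time, and its part in them was not tested. Both arms differ little in it, so memory against control at each time, 12 against 0 h and 48 against 24 h stay within a set. Epidermal krt4 averaged 13.55 to 14.62 over the groups, and the actinodin gene and1, of fin mesenchyme and epidermis, averaged 12.97 in memory and 13.14 in control fins at 48 h but 3.85 and 3.75 at 12 h. The epidermal marker krt4 was thus present throughout, and and1 at 0, 24 and 48 h. Other epidermal markers moved both ways. Of 24 tested, 11 were higher and 8 lower at 12 h than at 0 h in memory fins, and 7 higher and 12 lower in control fins. Of all tested probe sets 69.6% and 68.5% were called in these comparisons.

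**Figure D1:**
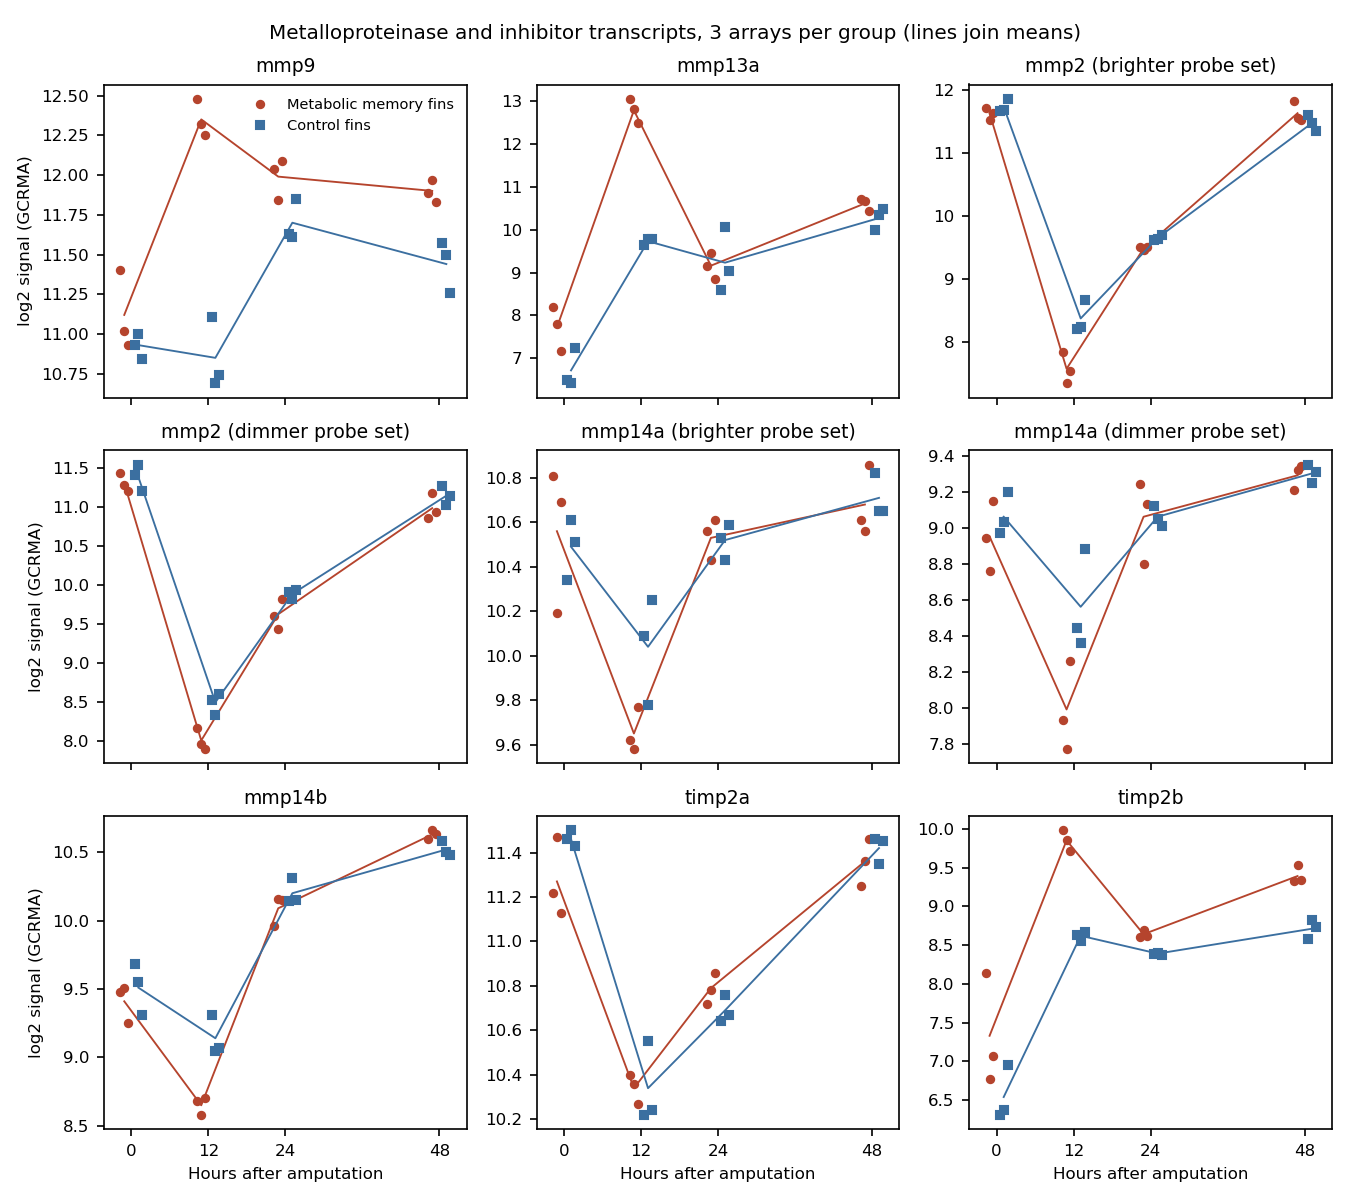
Log2 GCRMA signal of each of the 9 probe sets (vertical axes, each with its own range) against hours after amputation, with a point for every array, red circles for metabolic memory fins, blue squares for control fins, and lines joining group means. Points of a time are spread sideways for display. At 12 h all memory arrays lie above all control arrays for mmp9, mmp13a and timp2b and below them for mmp2, mmp14a and mmp14b, while timp2a overlaps.

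The gelatinase gene mmp9 rose by 12 h in memory fins and did not pass the test at that time in control fins. For it and all genes below, fewer cells of a type and less RNA per cell cannot be told apart in bulk RNA. At 0 h it read 11.40, 11.02 and 10.93 in memory fins, against 10.93, 11.00 and 10.84 in control fins, so the arms overlapped. At 12 h it read 12.48, 12.32 and 12.25 in memory fins, against 11.11, 10.69 and 10.74 in control fins. The lowest memory array of 12 h thus stood more than 1 log2 unit above the highest control array of that time. The change from 0 to 12 h was 1.23 ± 0.13 in memory fins (SE, 2.35-fold, adjusted p = 3.53e-08) and -0.08 ± 0.13 in control fins (adjusted p = 0.607). Control fins followed later: mmp9 at 24 h was 0.77 ± 0.13 above 0 h in control fins (adjusted p = 2.07e-05), with all 24 h arrays above all 0 h arrays. At that time the arrays read 12.04, 11.84 and 12.09 in memory fins and 11.63, 11.61 and 11.85 in control fins, and the arms overlapped. At 48 h they read 11.89, 11.97 and 11.83 in memory fins, all above the 11.57, 11.50 and 11.26 of control fins. In order of level, memory fins at 12 h came first with 12.35 ± 0.12 (SD), apart from all other groups, and control fins at 12 h last with 10.85 ± 0.23, overlapping both groups of 0 h. The 3 later memory groups filled the top of the order, followed by control fins at 24 and 48 h. Within memory fins mmp9 fell by 0.36 on the log2 scale between 12 and 24 h (SE 0.13, adjusted p = 0.0325). Leaving out memory 12 h replicate 1 or 2 ended this call (adjusted p = 0.126 and 0.0583), as did leaving out memory 24 h replicate 1 or 2 (0.0515 and 0.135) and a second quantile normalisation (0.139).

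The collagenase gene mmp13a had the widest range of the 9 probe sets, with group means between 6.72 in control fins at 0 h and 12.78 in memory fins at 12 h, a 66.7-fold span. At 0 h its arrays read 8.20, 7.79 and 7.18 in memory fins and 6.50, 6.42 and 7.24 in control fins. Only 1 memory array lay inside the control range at that time. At 12 h they read 13.05, 12.82 and 12.48 in memory fins, against 9.64, 9.77 and 9.78 in control fins. No other group reached the level of memory fins at 12 h. The rise over 0 h was 5.06 ± 0.30 (SE, 33.4-fold, adjusted p = 4.84e-12) in memory fins and 3.01 ± 0.30 (8.05-fold, adjusted p = 1.63e-08) in control fins. Among all 10140 probe sets these were the 16th and the 102nd largest rises of their comparisons. By 24 h the arrays read 9.16, 9.46 and 8.86 in memory fins and 8.60, 10.07 and 9.03 in control fins, and the arms overlapped. From 12 to 24 h mmp13a therefore fell by 3.62 on the log2 scale in memory fins (SE 0.30, adjusted p = 1.17e-08), while the control difference of -0.49 ± 0.30 did not pass (adjusted p = 0.266). Without control 24 h replicate 2, the highest array of its group, the control difference was -0.91 and passed (adjusted p = 0.0288). Levels at 48 h were higher again, with 10.71, 10.66 and 10.44 in memory fins and 10.00, 10.34 and 10.47 in control fins. That second rise was 1.45 ± 0.30 in memory fins (adjusted p = 0.000997) and 1.04 ± 0.30 in control fins (adjusted p = 0.0121). The control value missed the threshold without control 24 h replicate 1 (0.72, adjusted p = 0.0825) or 3 (0.93, adjusted p = 0.0521) and in a fit on only the groups compared (adjusted p = 0.0633).

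The second gelatinase gene, mmp2, went the other way, with its lowest levels at 12 h and a return to near its 0 h level by 48 h. At 0 h its brighter probe set read 11.71, 11.53 and 11.64 in memory fins and 11.66, 11.68 and 11.86 in control fins. At 12 h it read 7.84, 7.34 and 7.54 in memory fins, all below the 8.20, 8.23 and 8.66 of control fins. The change at 12 h was -4.06 ± 0.13 in memory fins, 16.7-fold lower (SE, adjusted p = 4.91e-16), and -3.37 ± 0.13 in control fins, 10.3-fold lower (adjusted p = 5.86e-15). These were the 72nd and 148th largest falls of their comparisons. At 24 h the set had come back part of the way, with 9.50, 9.45 and 9.50 in memory fins and 9.61, 9.63 and 9.70 in control fins. At 48 h it read 11.82, 11.55 and 11.52 in memory fins and 11.60, 11.47 and 11.34 in control fins, overlapping the 0 h arrays in memory fins and just below them in control fins. The difference between 48 and 0 h was 0.00 in memory fins, with a 95% interval of -0.27 to 0.27, and -0.27 in control fins, with an interval of -0.53 to 0.00. The dimmer probe set gave the same course, with 8.17, 7.97 and 7.90 in memory fins and 8.53, 8.34 and 8.61 in control fins at 12 h. Its change at 12 h was -3.30 in memory fins and -2.89 in control fins, 9.85-fold and 7.43-fold lower (adjusted p = 4e-15 and 2.59e-14). Over the 8 group means the pair of mmp2 probe sets correlated at 0.994. They parted at 48 h, where the dimmer set still differed from 0 h by -0.32 ± 0.12 in memory fins (adjusted p = 0.0241). Leaving out memory 0 h replicate 1, or memory 48 h replicate 1 or 3, ended this call (adjusted p = 0.101, 0.106 and 0.071). In control fins neither set was called at 48 h against 0 h (adjusted p = 0.0714 brighter and 0.0836 dimmer). With arrays centred on their median both were, at -0.34 and -0.32 (adjusted p = 0.0212 and 0.0255). The dimmer set also passed there without control 0 h replicate 3 (-0.33, adjusted p = 0.0316).

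The membrane-bound members dipped at 12 h by smaller amounts, and mmp14b then passed its starting level. At 12 h mmp14b read 8.68, 8.58 and 8.70 in memory fins, below the 9.31, 9.05 and 9.07 of control fins. The change from 0 h was -0.76 ± 0.10 in memory fins (SE, 1.69-fold lower, adjusted p = 1.47e-06) and -0.37 ± 0.10 in control fins (1.29-fold lower, adjusted p = 0.00333), where 1 array of 12 h reached the 0 h range. The control call was lost in a fit on only the groups compared (adjusted p = 0.0568). At 48 h it read 10.60, 10.66 and 10.63 in memory fins and 10.58, 10.50 and 10.48 in control fins, which was 1.22 ± 0.10 and 1.01 ± 0.10 above 0 h, 2.32-fold and 2.01-fold. These 48 h groups held the highest mmp14b levels of the course. For mmp14a the brighter probe set read 9.62, 9.58 and 9.77 in memory fins and 10.09, 9.78 and 10.25 in control fins at 12 h. Its change from 0 h was -0.91 ± 0.14 (1.88-fold lower, adjusted p = 7.69e-06) in memory fins and -0.45 ± 0.14 (1.36-fold lower, adjusted p = 0.00789) in control fins. Without control 12 h replicate 2, the lowest array of its group, the control change was -0.32 and was no longer called (adjusted p = 0.0639). The dimmer probe set changed by -0.96 ± 0.14 in memory fins (adjusted p = 5.1e-06) and by -0.51 ± 0.14 in control fins (adjusted p = 0.00387), and the pair of sets correlated at 0.986 over the group means. At 24 h neither mmp14a set differed from 0 h past the threshold in either arm, with differences between -0.03 and 0.11. At 48 h the dimmer set alone passed, by 0.34 ± 0.14 in memory fins (adjusted p = 0.0389). It lost that call when memory 0 h replicate 1 or 2 or memory 48 h replicate 2 or 3 was left out (adjusted p 0.0752 to 0.172) and when arrays were rescaled by median or quantiles.

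The inhibitor paralogues timp2a and timp2b took opposite courses in the first 12 h after amputation. From 24 to 48 h both rose in memory fins, timp2a by 0.57 ± 0.10 (SE, adjusted p = 0.00017) and timp2b as given below. At 0 h timp2a read 11.22, 11.47 and 11.13 in memory fins and 11.46, 11.50 and 11.43 in control fins. At 12 h it read 10.40, 10.36 and 10.27 in memory fins and 10.22, 10.55 and 10.24 in control fins, with the arms overlapping. Its change at 12 h was -0.93 ± 0.10 in memory fins (SE, 1.91-fold lower, adjusted p = 4.27e-08) and -1.12 ± 0.10 in control fins (2.18-fold lower, adjusted p = 2.46e-09). By 48 h timp2a was back at 11.25, 11.36 and 11.46 in memory fins and 11.46, 11.35 and 11.45 in control fins, and overlapped its 0 h arrays. By contrast timp2b at 0 h read 8.14, 6.77 and 7.07 in memory fins, against 6.31, 6.37 and 6.95 in control fins. Memory replicate 1 stood apart from the other arrays of that time. At 12 h timp2b read 9.98, 9.85 and 9.71 in memory fins, against 8.63, 8.55 and 8.67 in control fins. The rise was 2.52 ± 0.22 in memory fins (5.74-fold, adjusted p = 2.54e-09) and 2.08 ± 0.22 in control fins (4.21-fold, adjusted p = 4.88e-08). Like mmp13a, timp2b fell in memory fins between 12 and 24 h, with a change of -1.21 ± 0.22 (adjusted p = 0.000209). The 24 h arrays read 8.60, 8.69 and 8.62 in memory fins, against 8.39, 8.40 and 8.37 in control fins. The second rise in memory fins, to 9.32, 9.53 and 9.34 at 48 h, was 0.76 ± 0.22 (adjusted p = 0.0147) and was not called without memory 48 h replicate 2 (0.69, adjusted p = 0.0559). Control fins at 48 h read 8.58, 8.82 and 8.73. Control arrays moved in the same directions without overlap, by -0.23 ± 0.22 from 12 to 24 h and 0.32 ± 0.22 from 24 to 48 h. Neither control step was called (adjusted p = 0.514 and 0.289). In a fit on only the groups compared the later control step passed (adjusted p = 0.0307).

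**Figure D2:**
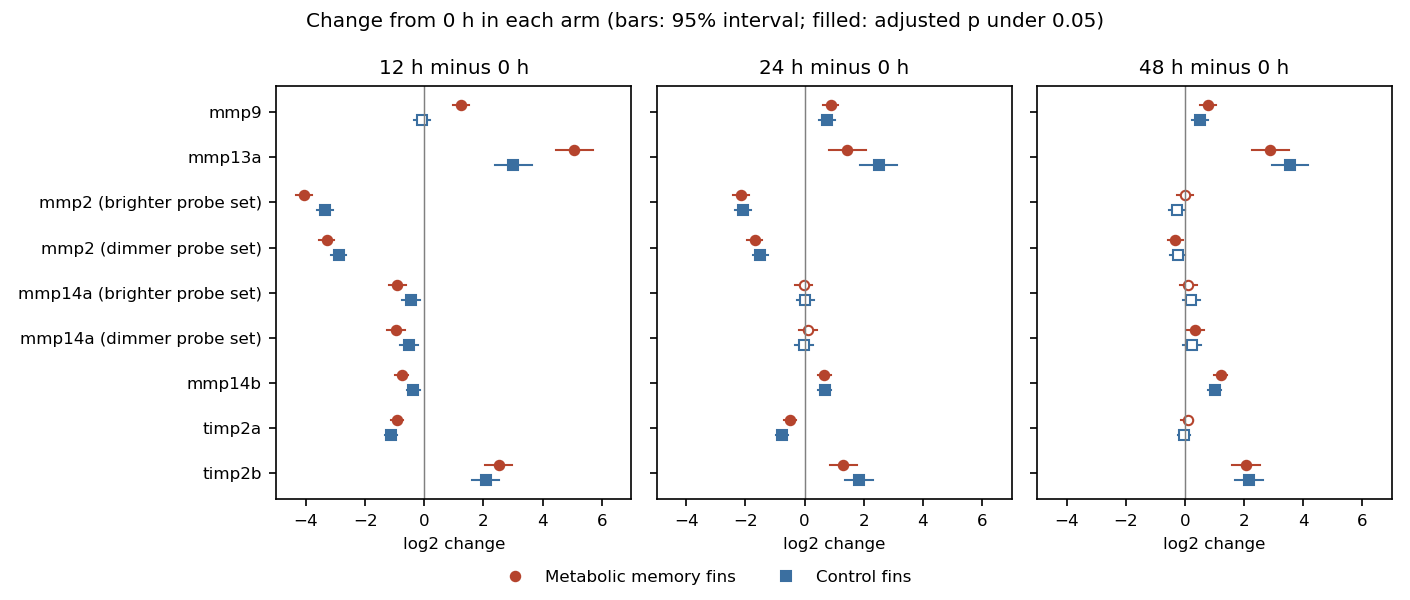
Log2 change from 0 h (horizontal axis) at 12, 24 and 48 h for each probe set, with memory fins (red circles) above control fins (blue squares). Bars are 95% intervals of the fit and filled symbols have an adjusted p under 0.05. At 12 h mmp13a and timp2b lie to the right of 0 in both arms and mmp2, mmp14a, mmp14b and timp2a to the left, and at 48 h mmp2, mmp14a and timp2a are near 0.

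Counted together, against 0 h, 9, 7 and 6 of the 9 probe sets were called in memory fins at 12, 24 and 48 h, where 69.6%, 68.3% and 69.8% of all tested probe sets were. In control fins 8, 7 and 4 were called, beside 68.5%, 68.4% and 69.9% of all. A changed signal after amputation is therefore common on these arrays, and at 24 h the share of called members was close to it. At 12 h the members' median absolute change was 1.23 in memory and 1.12 in control fins, beside 0.61 over all probe sets in each arm. At 48 h it was 0.34 in memory and 0.27 in control fins, beside 0.62 in each. Since the members were chosen with earlier results of these data known, these sizes and counts are descriptions and no test of the family. By direction, 3 of the probe sets rose and 6 fell at 12 h in memory fins, and 2 rose and 6 fell in control fins, with mmp2 and mmp14a counted by both of their sets. These calls cover 7 genes in memory and 6 in control fins. At 48 h 5 were higher and 1 lower in memory fins, and 4 higher and 0 lower in control fins. Between 12 and 24 h all 9 changed in memory fins (39.6% of all probe sets), 6 upward and 3 downward, and 7 in control fins (20.1%), all upward. Between 24 and 48 h 6 were called in memory fins (27.4%) and 5 in control fins (30.9%), all of them higher at 48 h.

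Metabolic memory and control fins were then compared at each time, the contrast that the design names. At 12 h, 8 of the 9 probe sets were called, beside 36.2% of all tested. Those higher in memory fins were mmp13a, by 3.06 ± 0.30 (SE, 8.32-fold, adjusted p = 2.69e-07), mmp9, by 1.50 ± 0.13 (2.84-fold, adjusted p = 4.97e-08), and timp2b, by 1.23 ± 0.22 (2.34-fold, adjusted p = 0.000229). They were the 4th, 67th and 131st largest of 10140 differences toward memory fins. Lower in memory fins was mmp2, with a difference of -0.79 ± 0.13 for its brighter set (1.73-fold lower, adjusted p = 7.28e-05) and -0.48 ± 0.12 for its dimmer set (1.40-fold lower, adjusted p = 0.00378). Lower too were mmp14b, at -0.49 ± 0.10 (1.40-fold lower, adjusted p = 0.000968), and the dimmer mmp14a set, at -0.57 ± 0.14 (1.48-fold lower, adjusted p = 0.0039). The brighter mmp14a set, with 9.77 as its highest memory array and 9.78 as its lowest control array, differed by -0.39 ± 0.14 (1.31-fold lower, adjusted p = 0.0371). Its call was lost when control 12 h replicate 1 or 3 or memory 12 h replicate 1 or 2 was left out (adjusted p 0.0871 to 0.157), with arrays centred on their median (0.134) and in a fit on only the groups compared (0.104), which also ended the call of the dimmer set (0.0714). The other inhibitor, timp2a, differed by 0.00, with a 95% interval of -0.20 to 0.21 (adjusted p = 0.981). The members' median absolute difference was 0.57, beside 0.26 over all probe sets. This too is a description, since the members were chosen with earlier results of these data known.

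**Figure D3:**
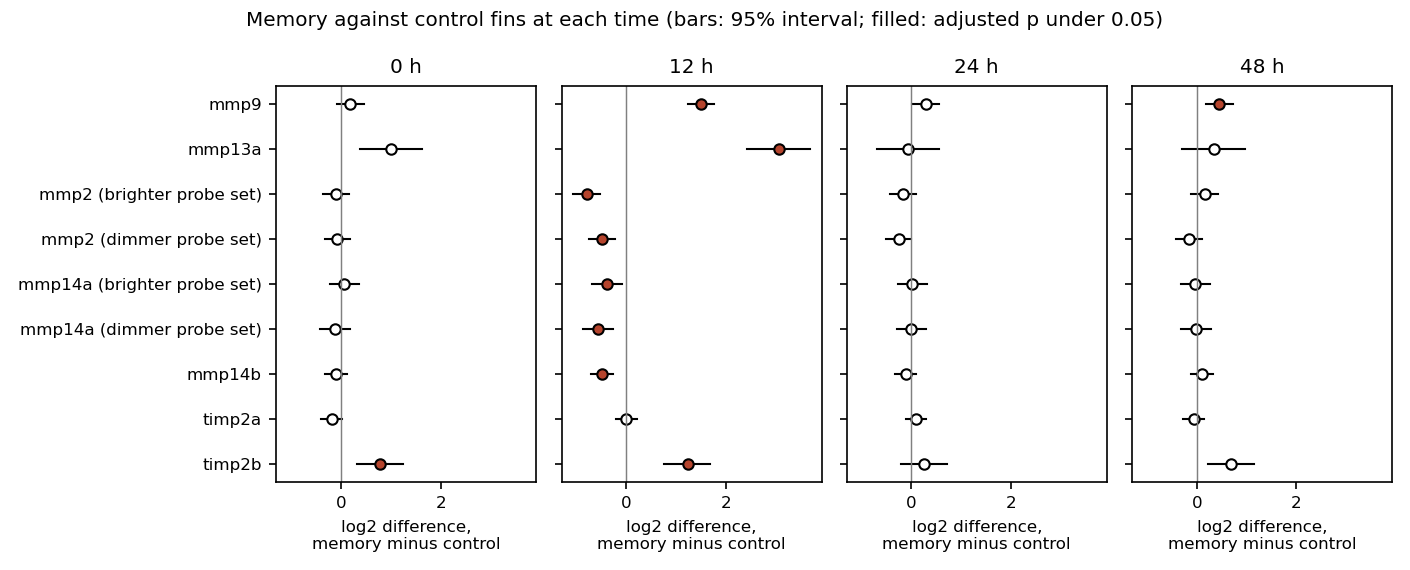
Log2 difference of memory minus control fins (horizontal axis) at 0, 12, 24 and 48 h for each probe set. Bars are 95% intervals of the fit and filled circles have an adjusted p under 0.05. At 12 h mmp13a, mmp9 and timp2b lie to the right of 0, the mmp2, mmp14a and mmp14b sets to the left, and timp2a on 0, while at 24 h no circle is filled.

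At the other times the arms were closer. At 0 h timp2b was called, 1 of the 9 probe sets, and was higher in memory fins by 0.78 ± 0.22 (1.72-fold, adjusted p = 0.0426), beside 5.52% of all probe sets. Its arms overlapped, and without memory 0 h replicate 1 the difference was 0.38 (adjusted p = 0.161). Leaving out control 0 h replicate 1 or 2 ended the call too (adjusted p = 0.15 and 0.141). At the same time mmp13a was higher by 1.00, with an interval of 0.38 to 1.63, and missed the threshold (adjusted p = 0.0534). It passed without control 0 h replicate 3 (1.26, adjusted p = 0.0258) or memory 0 h replicate 3 (1.27, adjusted p = 0.0282). At 24 h 0 of 9 were called by limma, beside 3.38% of all, and mmp9 and the dimmer mmp2 set had unadjusted p of 0.0347 and 0.0424. The mmp13a difference at 24 h was -0.07, with an interval of -0.70 to 0.55, and without control 24 h replicate 2 it was 0.35 (adjusted p = 0.632). At 48 h mmp9 was called, at 0.45 ± 0.13 (1.37-fold, adjusted p = 0.0436), beside 5.69% of all. Leaving out any of the 6 arrays of that comparison ended the call (adjusted p 0.0736 to 0.152). The 48 h difference of timp2b, 0.68 with an interval of 0.22 to 1.15, did not pass (adjusted p = 0.0744). In a fit on only the groups compared timp2b passed at 48 h (adjusted p = 0.0196) and mmp9 did not (adjusted p = 0.0514), so the called gene depends on the fit.

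Whether the arms changed differently after amputation was tested as the memory minus control difference at a later time, less that at 0 h. For 12 h 3 probe sets passed, beside 23.5% of all. The extra change in memory fins was 1.31 ± 0.18 for mmp9 (adjusted p = 5.55e-05), 2.05 ± 0.42 for mmp13a (adjusted p = 0.00167) and -0.69 ± 0.18 for the brighter mmp2 set (adjusted p = 0.00942). The mmp2 call was lost in a fit on only the groups compared (adjusted p = 0.0532). For timp2b the value was 0.45 ± 0.31 (adjusted p = 0.326), and without memory 0 h replicate 1 it was 0.85 (adjusted p = 0.00518). The mmp14b value was -0.39 ± 0.15 (adjusted p = 0.0602) and passed without control 0 h replicate 1 or memory 0 h replicate 3 (adjusted p = 0.0277 and 0.0311). The brighter mmp14a set, at -0.46 (adjusted p = 0.0995), passed without memory 0 h replicate 2 or control 12 h replicate 2 (adjusted p = 0.0127 and 0.0364), and the dimmer set, at -0.45 (adjusted p = 0.112), without memory 12 h replicate 3 (0.0438). For 24 and 48 h limma called 0 members, beside 2.5% and 4.38% of all, and mmp13a at 24 h, with -1.08 ± 0.42, was the only one at an unadjusted p under 0.05 (adjusted p = 0.186). The difference between the arms in the step from 12 to 24 h, a contrast added after these values had been seen, passed for 4 probe sets, beside 16.4% of all. It was -3.13 ± 0.42 for mmp13a, -1.21 ± 0.18 for mmp9, -0.98 ± 0.31 for timp2b and 0.63 ± 0.18 for the brighter mmp2 set (adjusted p = 7.64e-05, 0.000219, 0.0383 and 0.0228). The timp2b call was lost when any of 10 of the 12 arrays was left out (adjusted p 0.0586 to 0.0782), the mmp2 call when control 12 h replicate 3 (0.0517) or memory 12 h replicate 2 (0.0681) was, and the mmp2 call in a fit on only the groups compared as well (0.0644). The step of mmp9 from 12 to 24 h was -0.36 ± 0.13 in memory fins, a call that several alternatives ended, and 0.85 ± 0.13 in control fins. Most of the mmp9 step difference thus came from the rise in control fins. These contrasts share arrays with the comparisons above and repeat part of the same measurement.

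Courses over the 8 group means were alike for some pairs of an enzyme and an inhibitor. The metalloproteinase mmp13a and the inhibitor timp2b correlated at 0.96, and mmp2 and the inhibitor timp2a at 0.98. The mmp14a course correlated at 0.86 with mmp2, 0.81 with timp2a and 0.87 with mmp14b. The mmp14b course was less like mmp2, at 0.61, and timp2a, at 0.58. The mmp9 course correlated at 0.73 with mmp13a, 0.76 with timp2b and -0.39 with mmp2, and timp2a with timp2b at -0.51. All of these share the same 8 groups and arrays and are descriptions. Among 3662 other named genes whose group means ranged over at least 1 log2 unit, timp2b ranked 3rd in likeness to mmp13a, after pierce1 at 0.976 and rab20 at 0.962 and before rap2b and cnpy1. By Spearman correlation over the 24 arrays it ranked 1st, at 0.93. The genes most like timp2b were gosr2, copg2, gpx1b, ufsp2 and derl2, at 0.961 to 0.98. For mmp9 they were chka, acsl4a, adprm, ext1a and sgsm3, at 0.888 to 0.942, the lowest top values of the 7 genes. The closest courses to mmp2 were those of pdgfrl, pax9, pon2, aldh2.2 and sgce, at 0.993 to 0.997, and to timp2a those of thbs4b, spon1b, cox4i2, selenop and gpx4a, at 0.986 to 0.989. Neither mmp2 nor timp2a was thus among the 5 genes most like the other, by Pearson or by Spearman correlation. For mmp14a they were e2f4, hmgn1a, postnb, cd82a and prdx1, and for mmp14b ctbp2a, fzd2, cdc20, zic2a and gpx1a, at 0.974 to 0.986 and 0.989 to 0.993. The choice of measure matters, since by Spearman correlation 2 of the 5 genes were shared for timp2b, 1 for mmp9, mmp13a and mmp14b, and 0 for mmp2, mmp14a and timp2a. By that measure the gene most like mmp14b was ctsk, the collagen-cutting cathepsin of osteoclasts in mammals, at 0.968.

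**Figure D4:**
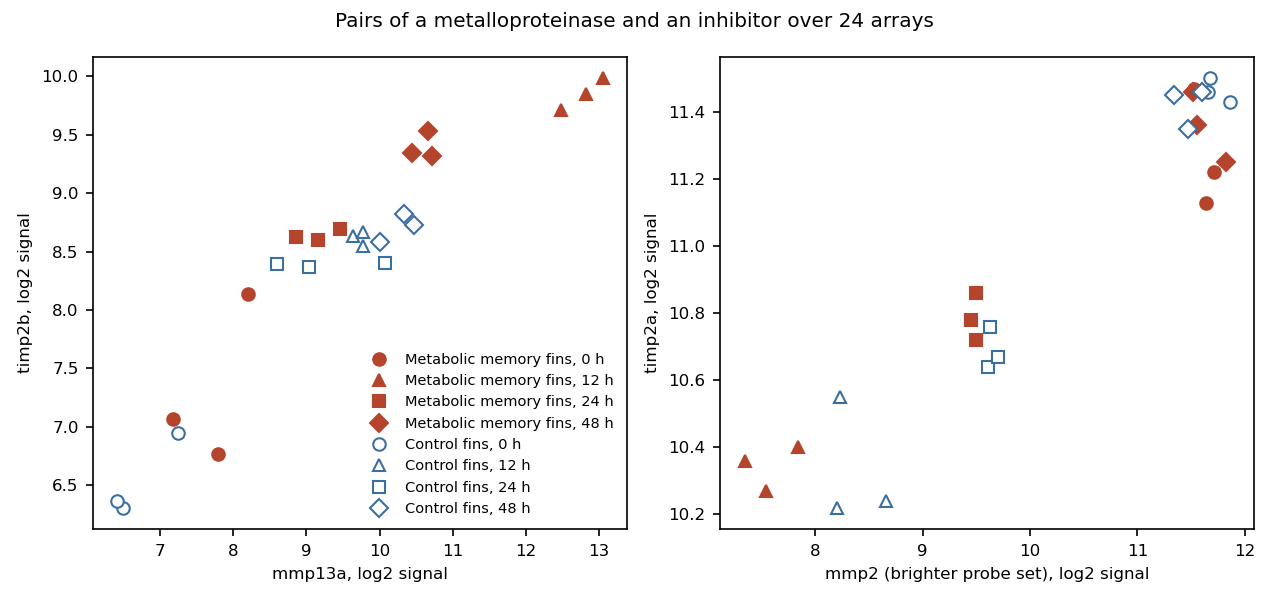
Log2 signal of timp2b against mmp13a (left) and of timp2a against the brighter mmp2 probe set (right), with 1 symbol per array, filled red for memory fins and open blue for control fins, and a shape for each time. On the left, memory arrays of 12 h stand alone at the top right and the 0 h arrays at the bottom left, and on the right the 12 h arrays of both arms are at the bottom left and those of 0 and 48 h at the top right.

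Few other members of these families could be read. Of 20 further mmp genes listed, 2 were on the array, and mmp17b, at 3.07 or below, did not pass the filter. The stromelysin gene mmp11b fell by 0.50 at 12 h in memory fins (SE 0.10, adjusted p = 9.98e-05), and its control difference of -0.21 ± 0.10 did not pass (adjusted p = 0.0553). Of 14 further inhibitor genes 1 was on the array, spock3, a proteoglycan that in humans holds back membrane-type metalloproteinases. Its change at 12 h was -2.47 ± 0.13 in memory fins and -2.69 ± 0.13 in control fins (adjusted p = 4.36e-13 and 1.15e-13). Neither mmp11b, with a difference of -0.21 ± 0.10 (adjusted p = 0.0892), nor spock3, with 0.12 ± 0.13 (adjusted p = 0.474), was called between the arms at 12 h. The list of the plasminogen system and proprotein convertases, which holds proteases that can activate metalloproteinase precursors and their inhibitors, gave 1 higher and 0 lower of 5 tested genes at 12 h, memory against control, with a median difference of 0.19 beside -0.02 over all probe sets, of which 36.2% were called. Those tested were the proteases furina, plaua, st14a and st14b and the protease inhibitor serpine2. The 1 was plaua, the urokinase gene, which read 5.37 on average in memory and 4.43 in control fins (0.94 ± 0.16, adjusted p = 0.000163). Both values are below 0 h, from which plaua changed by -1.85 ± 0.16 in memory and -3.35 ± 0.16 in control fins. Furin, a convertase that removes the propeptide of membrane-type metalloproteinases, is read here as furina. At 12 h furina stood 1.06 ± 0.13 above 0 h in memory and 1.28 ± 0.13 in control fins, and differed by 0.00 between them. Its means were low, at 3.19 in memory and 2.97 in control fins at 0 h and 4.25 and 4.26 at 12 h. Only 12 h arrays reached the filter at 4. The rise of furina is therefore not independent of the filter. The ADAM protease genes tested were adam10a, adam10b and adam17a, and their differences of 0.18, 0.19 and 0.08 between the arms at 12 h did not pass (adjusted p = 0.191, 0.228 and 0.622).

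Genes of the extracellular matrix fell for the most part while mmp2 was at its lowest. The list holds matrix proteins and has2, an enzyme that makes the matrix sugar hyaluronan. Of its 16 tested genes 5 were higher and 10 lower at 12 h in memory fins, with a median change of -1.52, and 4 higher and 10 lower in control fins, with a median of -0.96. Over this interval 69.6% of all tested probe sets were called in memory and 68.5% in control fins. The proteoglycan gene bgnb read 5.74 or higher at 0 h and 4.05 or lower at 12 h. It passed the filter only with its 0 h arrays, so its fall is not independent of the filter. All 0 and 12 h arrays of has2 were below the filter, at 3.62 or lower, and it was tested through later arrays. Most osteoblast markers fell over the same interval, while fibroblast and blastema markers moved both ways. Of 10 osteoblast markers 9 fell in each arm, with medians of -2.35 in memory and -2.40 in control fins, and their sums at 12 h were 3990 to 6340 in memory fins, against 28500 to 30600 at 0 h, and 6560 to 7910 in control fins, against 27700 to 31000 at 0 h. Of 13 fibroblast and blastema markers 3 rose and 7 fell in memory fins, with a median of -0.52. In control fins 4 rose and 5 fell, with a median of -0.13. Their sums at 12 h were 3350 to 3930 in memory fins, against 6810 to 7180 at 0 h, and 4530 to 5110 in control fins, against 6690 to 6940 at 0 h. These last sums include dcn, which the matrix list holds as well. The dcn means were 11.48 at 0 h and 9.09 at 12 h in control fins, and 11.54 and 8.90 in memory fins. On the linear scale dcn alone made up about all of the fall of the sum in control fins and most of it in memory fins. The falls of these sums therefore say little of the other fibroblast and blastema markers. The part of osteoblasts, fibroblasts and blastema cells in the falls of mmp2, mmp14a, mmp14b, timp2a and the matrix genes was not tested. Among the matrix genes that fell were the collagen chain genes col6a3 (-3.50 ± 0.14 in memory and -3.22 ± 0.14 in control fins) and col1a2 (-2.10 ± 0.15 in memory and -1.29 ± 0.15 in control fins) and dcn, of the proteoglycan decorin (-2.64 ± 0.13 in memory and -2.39 ± 0.13 in control fins). The tenascin gene tncb (3.36 ± 0.27 in memory and 4.27 ± 0.27 in control fins) and the fibronectin gene fn1a (2.54 ± 0.09 in memory and 2.29 ± 0.09 in control fins) rose. Between the arms at 12 h 1 was higher and 5 lower in memory fins, with a median of -0.18. The share called was close to the 36.2% of all tested probe sets in this comparison. The higher gene was vcanb, of the proteoglycan versican, by 1.00 ± 0.18 (adjusted p = 0.000172). The lower ones included lamb1a, a laminin chain, at -1.09 ± 0.13 (adjusted p = 2.39e-06), col1a2 at -0.61 ± 0.15 (adjusted p = 0.00327) and sparc at -0.46 ± 0.09 (adjusted p = 0.000775). Of 11 tested cathepsins and their inhibitors, 2 were higher and 4 lower in memory fins at 12 h, with a median of -0.04. Among them were ctsl.1 (0.90 ± 0.23, adjusted p = 0.00403) and ctsk (-0.63 ± 0.08, adjusted p = 7.73e-06). Means were 4.93 in memory and 4.03 in control fins for ctsl.1, close to the filter at 4, and 10.69 and 11.32 for ctsk.

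The list of AP-1 factors and injury cytokines also holds genes of the NF-kB and STAT pathways and their inhibitors. Some AP-1 factors induce MMP9 and MMP13 in mammalian cells, which does not make every member of the family an inducer. Of the members measured, atf3, fosl2, jdp2b, junba and junbb rose in both arms at 12 h, while fosab was not called in either. Their action on mmp9 and mmp13a was not tested. Of the 14 tested genes of the whole list, which include the inhibitors nfkbiaa, nfkbiab, socs3a and socs3b, 9 were higher and 2 lower in memory fins, with a median change of 0.99, and 10 higher and 1 lower in control fins, with a median of 1.80. Of all tested probe sets 69.6% were called in memory and 68.5% in control fins. Between the arms at that time, where mmp9 and mmp13a were higher in memory fins, 1 gene was higher and 1 lower, with a median of -0.33, beside 36.2% of all probe sets called. The higher gene was inhbaa, an activin subunit needed for fin regrowth in zebrafish, by 0.79 ± 0.16 (adjusted p = 0.000775), and the lower one was tgfb1a, at -0.49 ± 0.12 (adjusted p = 0.00227). The AP-1 genes junba (-0.02 ± 0.19, adjusted p = 0.937), fosl2 (-0.30 ± 0.23, adjusted p = 0.333) and fosab (-0.62 ± 0.55, adjusted p = 0.404) were not called. At 48 h 5 of the 14 were lower in memory fins and 0 higher, beside 5.69% of all probe sets called, with jdp2b at -3.34 ± 0.74 (adjusted p = 0.0124), fosab at -2.30 ± 0.55 (adjusted p = 0.0178), atf3 at -1.91 ± 0.53 (adjusted p = 0.0368) and socs3a at -1.13 ± 0.25 (adjusted p = 0.0129). Spread was wider in control fins, where jdp2b ran from 9.99 to 12.37 and atf3 from 6.68 to 8.92. In memory fins they ran from 7.53 to 8.25 and from 5.77 to 6.04. The fit uses a shared spread for all groups.

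Markers of cell types that could make these enzymes were also compared between the arms at 12 h, where 36.2% of all tested probe sets were called. Counts below are to be read beside that share. Of 24 epidermal markers 12 were higher and 2 lower in memory fins, with a median of 0.23, and their summed linear signal was 230000 to 245000 in memory fins, against 209000 to 234000 in control fins. The largest differences ran both ways. The keratin gene krt1-19e was higher, at means of 7.66 in memory and 5.54 in control fins (adjusted p = 2.77e-07), which were below 12.76 and 12.84 at 0 h, and agr1 was higher by 0.78 ± 0.17 (adjusted p = 0.00141). The 2 lower ones were anxa1c, at 11.31 in memory and 12.61 in control fins (adjusted p = 2.71e-07), and krt1-19d, at 11.00 in memory and 11.77 in control fins, while krt4 differed by 0.04 ± 0.08 (adjusted p = 0.765). Of 13 fibroblast and blastema markers 0 were higher and 6 lower, with a median of -0.36, and sums of 3350 to 3930 in memory fins, against 4530 to 5110 in control fins. The lower ones included twist3 (-1.19 ± 0.16, adjusted p = 7.51e-06) and msx2b (-1.38 ± 0.30, adjusted p = 0.00135). Osteoclast markers gave 0 higher and 2 lower of 3, among them acp5a at -1.12 ± 0.27 (adjusted p = 0.00314) and ctsk, which the cathepsin list holds as well. Their sums were 1830 to 2220 in memory fins and 3040 to 3160 in control fins, and most of that signal came from ctsk, at means of 10.69 and 11.32. Osteoblast markers gave 0 higher and 2 lower of 10, spp1 and postnb, with a median of 0.00, and sp7 did not pass the filter. Their sums were 3990 to 6340 in memory fins and 6560 to 7910 in control fins, and most of that summed signal came from postnb, at means of 11.98 in memory and 12.59 in control fins. The collagen X genes col10a1a, at 8.38 in memory and 7.93 in control fins, and col10a1b, at 8.61 in memory and 7.87 in control fins, were not called (adjusted p = 0.0743 and 0.0601). Neutrophil and macrophage markers gave 2 higher and 0 lower of 10, ncf1 (0.76 ± 0.24, adjusted p = 0.0163) and coro1a (0.39 ± 0.13, adjusted p = 0.0238), with sums of 1630 to 1770 in memory fins and 1370 to 1460 in control fins. The defining neutrophil genes were low at 12 h, lyz with means of 3.24 in memory and 2.76 in control fins and mpx with 3.78 and 3.33. At 0 h the sums of this list were 2190 to 2420 in memory fins and 1630 to 1960 in control fins. At that time 3 of 10 were higher in memory fins and 0 lower. Of the 10, lyz and mpx passed the filter only through 0 h arrays. At that time mpx read 4.96 or higher in memory and 4.25 or lower in control fins. The 0 h difference of mpx is therefore not independent of the filter. For lyz the 0 h arrays of both arms were above the filter, at 7.77 or higher in memory fins and 6.05 to 7.19 in control fins. The part of these cells in the timp2b call at 0 h was not tested. Of all tested probe sets 5.52% were called at 0 h. Of the endothelial markers kdrl was higher (0.39 ± 0.10, adjusted p = 0.00527) and flt4 was not called (0.23 ± 0.14), while tie1 and tek did not pass the filter. The single blood marker past the filter, hbaa1, differed by -0.96 ± 0.76 (adjusted p = 0.352). The part of each of these cell types in the differences of mmp9, mmp13a, mmp2, mmp14a, mmp14b and timp2b at 12 h was not tested.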

How the data were processed

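RNA of 24 caudal fin samples in 8 groups of 3 was hybridised to Affymetrix zebrafish arrays, per the labels as biotinylated cRNA from 6 ug total RNA. What the authors deposited is 1 log2 signal for each probe set and array, and the submitters' processing notes name Partek and GCRMA for it. GCRMA takes off a background predicted from the bases of each probe, brings arrays to a shared distribution and combines the probes of a set, and it compresses low signals. Tool versions are not given in the sources used here. Groups came from the labels of each sample.

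The array holds 15617 probe sets, of which 115 are controls and stayed out. A probe set entered the tests if 3 or more arrays read log2 4 or higher, and 10140 did. Symbols came from the platform annotation, updated through gene numbers, and 10717 probe sets carried the same single symbol in both sources. A gene with several probe sets was represented in lists and likeness by its brightest, and every member probe set was followed. R 4.3.3 and limma 3.58.1 fitted 1 mean per group, and moderated tests (eBayes, no trend) were adjusted by Benjamini-Hochberg over all tested probe sets in each of 18 comparisons. The script was tested on simulated data. The number of arrays limits the precision.

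The members and the gene lists were chosen with earlier results of these data known. Named are all members, up to 4 called genes per list and comparison by size, any other metalloproteinase or inhibitor gene, and the 5 genes most like each member by Pearson correlation over the group means. The genes krt4, and1, col10a1a, col10a1b, lyz, mpx, flt4, junba, junbb, fosl2, nfkbiaa, st14a, st14b, serpine2, has2, adam10b, adam17a and the top Spearman gene of mmp14b were picked outside this rule with their values known. Summed signals are sums of linear values over a list's genes on the array. Alternatives were no filter, a filter at 6, eBayes with trend and robust estimation, median centring, a repeated quantile normalisation, a replicate block, fits restricted to the groups being compared, Spearman likeness, and each array left out. A planned description of sequences was not run, since no sequence table was used here. Whether triplicates are separate pools of fish is not given, so p-values may measure technical spread only.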

Additional observations from a re-analysis of the deposited data

Results flagged for a closer look

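Differences between the arms in how a gene changed, by a test of that difference, passed for 3 genes from 0 to 12 h and for timp2b in a later contrast. From 0 to 12 h the change in memory fins exceeded that in control fins by 1.31 log2 units for mmp9 and by 2.05 for mmp13a, and for the brighter mmp2 probe set it was lower, at -0.69. From 12 to 24 h the memory minus control difference in the step was -1.21 for mmp9, -3.13 for mmp13a, -0.98 for timp2b and 0.63 for the brighter mmp2 set. The second set of differences was tested after the values had been seen and shares the 12 h arrays with the first. Both mmp2 calls were lost in a fit on only the groups compared (adjusted p = 0.0532 and 0.0644). The timp2b call was lost when any of 10 of the 12 arrays was left out (adjusted p 0.0586 to 0.0782), with no filter (0.0635) and with quantile normalisation (0.0598).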

How the results depend on the processing

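Of 162 values of a probe set in a comparison, 85 were called, and 67 of these kept their call and direction under every alternative run, while 18 lost the call under at least 1. Of the 77 not called, 12 were called under at least 1 alternative. No called value changed sign. Counts of called members moved by over 1.5 times in these cases. Memory against control at 0 h had 1 call, 0 with no filter, with median centring, with the replicate block and in a fit on only the groups compared, 2 with a filter at 6 and with quantile normalisation, and 0 to 2 with an array left out. Memory against control at 48 h had 1 call, and 0 with no filter, with quantile normalisation and with any array left out. The control step from 12 to 24 h had 7 calls and 4 in a fit on only the groups compared, that from 24 to 48 h 5 calls and 3 to 5 with an array left out, and the difference between arms in the step from 12 to 24 h 4 calls and 2 to 5. Replicate numbers were not used as pairs in the main fit. Deviations of same-numbered arrays correlated at -0.225 to 0.37 over 84 pairs, with a median of 0.025, and 19 of these pairs exceeded 0.1. For 168 pairs of different number the range was -0.368 to 0.231, with a median of -0.009, and 12 exceeded 0.1. Values over 0.1 were thus more frequent among same-numbered arrays, though both medians were near 0. With the replicate block the timp2b call at 0 h was lost (adjusted p = 0.0501) and the dimmer mmp14a set gained one in the step difference (adjusted p = 0.0259). Median centring moved the median of all probe sets at 12 h in memory fins to 0.22, against 0.02 without it, and that of memory against control fins at 12 h to 0.10, against -0.02. Causes of these moves were not tested. Precision is limited by 3 arrays per group.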
